A study of Mus musculus with 9 samples.

Results

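The Hox genes of the mouse are homeobox transcription factors that lie in 4 clusters, Hoxa, Hoxb, Hoxc and Hoxd. Every gene of the deposited table whose symbol is Hox, a cluster letter and a paralogue number was taken. That gave 39 genes of the 45777 in the table, with 11 in Hoxa, 10 in Hoxb and 9 each in Hoxc and Hoxd. Antisense and opposite-strand genes of the clusters were left out of the 39. The series holds RNA-seq of colon tissue from wild-type mice in 9 libraries. The IM-HYA group ate a diet containing HYA and had a hindlimb cast for 10 days, the IM group ate normal diet and had the same cast, and the CT group ate normal diet as the control. Each group had 3 libraries. The sources used here do not give strain, sex, age or the stretch of colon taken. The labels do not say whether the libraries of a group came from separate animals, so p-values measure the spread between these libraries.

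Genes at one end of each cluster carry low paralogue numbers and are active toward the head of the embryo, and genes at the other end carry high numbers and are active toward the tail. The order on the chromosome thus runs along the body axis, a property called collinearity, and adult gut keeps part of the pattern, with high-numbered genes active toward the rectum. Hox proteins bind DNA together with Pbx and Meis cofactors, and caudal-type factors such as Cdx2 act upstream of many of them.

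In GRCm38 the Hoxa cluster lies on the minus strand of chromosome 6. The other clusters lie on the plus strand, Hoxb at chr11:96194316-96368254, Hoxc at chr15:102921131-103036856 and Hoxd at chr2:74668225-74765142. Exons of 16 of the 39 members overlap an exon of another gene, on the same strand for 9 and on the opposite strand for 10. The sources used here do not say whether the counting used strand, and these members share reads with their neighbours to an unknown extent. Among them are Hoxd3 with Hoxd4, Hoxc5 with Hoxc10, Hoxd10 and Hoxd11 through a shared gene model, and Hoxa11 with its opposite-strand partner Hoxa11os.

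The stretches before the starts of Hoxd13, Hoxb8 and Hoxd4 are shown. Hoxd13 and Hoxb8 carry 2 different patterns of the family across libraries, and Hoxb8 and Hoxd4 had the smallest p-values between IM and CT. The stretches are RefSeq sequence (GRCm38.p6), taken from a set of promoter windows of 300 bases. In that set 22 of the 39 members were matched, with 24 windows. Each line gives the 250 bases before the start, 5′ to 3′ on the plus strand. Capitals mark every match to the caudal-type motifs TTTATG and TTTATA on either strand. TTTATA read on the other strand is TATAAA, the TATA box, so one match counts for both.
Hoxd13, chr2:74667975-74668224: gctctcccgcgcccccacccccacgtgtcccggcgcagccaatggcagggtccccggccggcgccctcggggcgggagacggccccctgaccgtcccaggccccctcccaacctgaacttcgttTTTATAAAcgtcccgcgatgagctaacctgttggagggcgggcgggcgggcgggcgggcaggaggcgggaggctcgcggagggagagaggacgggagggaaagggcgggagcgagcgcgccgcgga
Hoxb8, chr11:96281655-96281904: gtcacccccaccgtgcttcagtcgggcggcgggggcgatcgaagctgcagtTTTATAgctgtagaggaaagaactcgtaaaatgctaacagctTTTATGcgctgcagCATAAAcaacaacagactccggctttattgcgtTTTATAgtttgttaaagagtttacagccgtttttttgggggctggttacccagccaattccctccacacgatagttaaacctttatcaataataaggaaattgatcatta
Hoxd4, chr2:74721728-74721977: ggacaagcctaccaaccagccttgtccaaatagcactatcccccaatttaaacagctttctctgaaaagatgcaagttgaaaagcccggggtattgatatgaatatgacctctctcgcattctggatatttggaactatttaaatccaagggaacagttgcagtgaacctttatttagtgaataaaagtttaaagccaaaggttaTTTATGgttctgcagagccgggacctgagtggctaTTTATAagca

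Matches in the Hoxb8 stretch began at positions -199, -157, -143 and -110 from the start. Those of Hoxd13 began at -126 and -124 and overlap, and those of Hoxd4 at -45 and -10. No annotated exon of GENCODE overlaps any of the 3 stretches, and the Hoxd4 stretch lies inside an intron of longer Hoxd3 and Hoxd4 transcripts. The start used for Hoxb8 is that of its GENCODE gene, and RefSeq, which adds predicted transcripts, begins the gene further upstream, at position 96279401 of chromosome 11, so the Hoxb8 stretch lies inside the RefSeq span. TTTATG was found in the 300-base windows of 5 of 22 members, against 11.9% of all 32851 windows. TTTATA was found in 4 of 22 members, against 13.6% of all windows. The homeodomain core TAATTA was found for 1 of 22 members, Hoxd11, against 5.29% of all windows, and the Pbx-type core TGATTG for 4 of 22, against 14.0%. CpG dinucleotides had a median of 14.5 in the member windows and 7 in all windows. A match is a string of letters and not a measured binding site.

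Total counts ranged from 34898874 to 42917198 in IM-HYA, from 22140783 to 35662716 in IM and from 19638401 to 37820345 in CT. IM 3 and CT 2 stood apart from the other libraries. Pancreatic acinar markers took 24.7% of the counts of CT 2 and 0.413% of those of IM 3, with 0.0686% or less elsewhere. Rn18s-rs5, a ribosomal RNA gene, took 3.66 to 4.60% of the counts in IM-HYA, 2.88 to 16.4% in IM and 5.42 to 23.2% in CT. Its share was 23.2% in CT 3, 16.4% in IM 3, 11.3% in IM 2 and 8.76% in CT 2, and 5.42% or less in the other 5 libraries. Without it and the pancreatic genes edgeR again called 0 Hox members. Count rates (CPM) were scaled by trimmed mean of M-values (TMM), which offsets that share when libraries are compared. The deposited TPM values, which are corrected for transcript length and used to compare genes with each other, are not offset. The pancreatic share thus lowers the TPM of colon genes in CT 2 by a common factor. Shares within the Hox family are free of it.

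Position along the colon is not given by the labels, which say colon tissue only. Values of a group are given in the order of its libraries 1, 2 and 3. Insl5, a hormone of enteroendocrine cells of the distal colon, measured 67.01, 84.6 and 81.9 CPM in IM-HYA, 64.6, 44.1 and 2.84 CPM in IM, and 66.2, 148 and 111 CPM in CT. Osr2, an odd-skipped factor of proximal colon, measured 1.04, 0.179 and 1.45 CPM in IM-HYA, 0.811, 9.76 and 31.99 CPM in IM, and 0.848, 0.547 and 0.342 CPM in CT. Cyp2c55, a cytochrome P450 of colon epithelium and the other proximal marker used, measured 252, 419 and 407 CPM in IM-HYA, 220.4, 617 and 564 CPM in IM, and 295, 227 and 487 CPM in CT. Insl5 was detected in every library and was lowest in IM 3, and of the 9 libraries Osr2 was high in IM 2 and IM 3. Cyp2c55 was highest in the same libraries, with CT 3 next. All 10 markers of colon epithelium were detected, with a summed level of 14753 to 16029 CPM in IM-HYA, 8117 to 15281 CPM in IM, and 12669 to 15871 CPM in CT. The lowest of these levels was that of IM 3.

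Hox RNA was present in all 9 libraries, and the family was led by Hoxb13. Of the 39 members, 25 had a count in every library, 31 reached 0.5 TPM in at least 1 library and 12 reached it in all 9. No count was found in any library for Hoxb1, Hoxc11, Hoxc12 or Hoxc13. Hoxc5, Hoxc9 and Hoxd1 had counts but were too low for testing, which left 32 members tested. By mean TPM over the 9 libraries Hoxb13 came first at 317 ± 240.1 (SD, n = 9). Hoxd13 followed at 35.1 ± 38.7 TPM and Hoxa10 at 25.5 ± 12.1 TPM. Then came Hoxb9 at 19.1 TPM, Hoxa5 at 17.2, Hoxa9 at 15.9, Hoxb6 at 14.8, Hoxa7 at 12.5 and Hoxb5 at 11.3. Hoxd10, Hoxd11, Hoxb8, Hoxa11 and Hoxa3 lay between 7.82 and 5.44 TPM. From Hoxd13 down to Hoxc5, the lowest member with counts in more than 1 library, mean levels of neighbours in this order differed by less than their SDs over libraries.

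**Figure D1:**
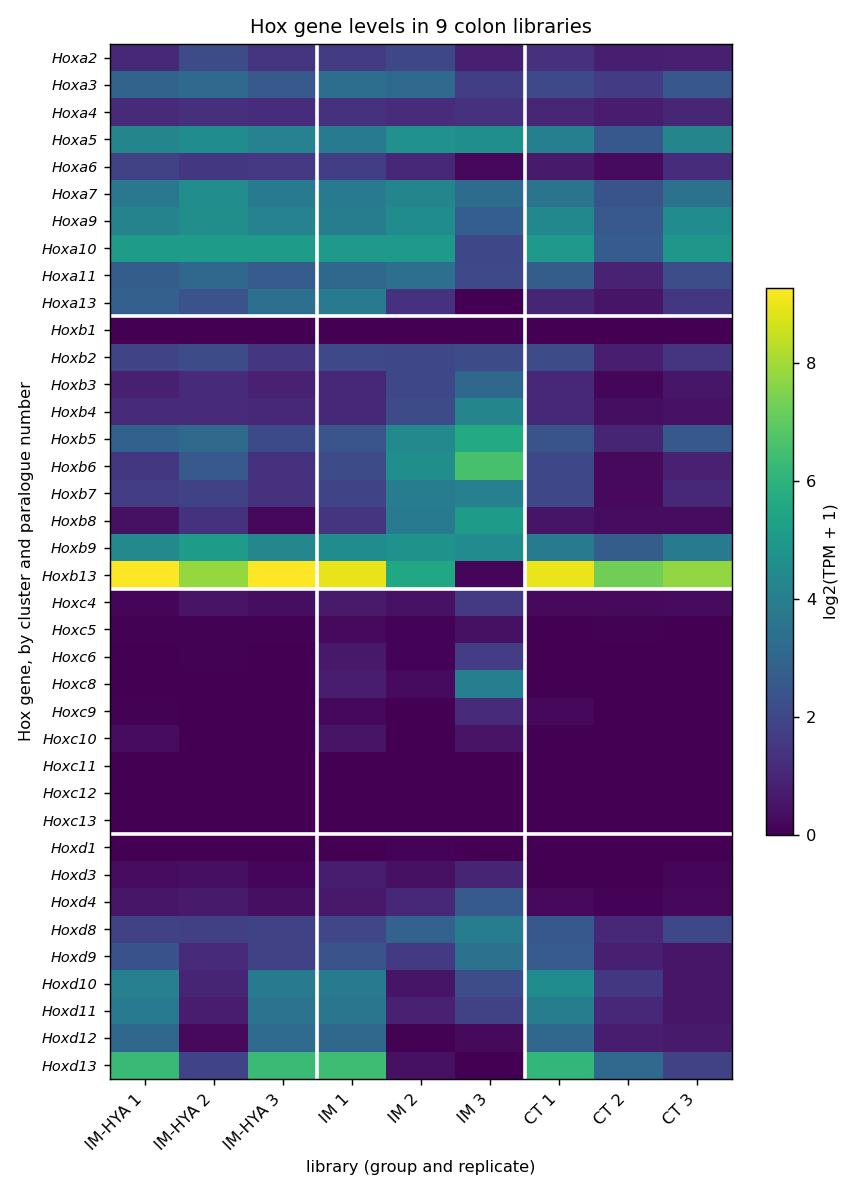
Level of Hox genes (rows, by cluster and paralogue number) in each library (columns, IM-HYA, IM and CT), as log2(TPM + 1) on a colour scale. Hoxb13 is the brightest row in 8 libraries and is dark in IM 3, and the rows of Hoxb4 to Hoxb8 are brighter in IM 2 and IM 3 than in the other libraries.

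The summed level of the family was 859, 412 and 862 TPM in IM-HYA, 771, 281 and 349 TPM in IM, and 747, 198 and 336 TPM in CT. Hoxb13 alone made up 70.2, 53.4 and 71.2% in IM-HYA, 64.9, 16.1 and 0.0291% in IM, and 67.8, 76.4 and 63.5% in CT of it. Its share was 53.4% or more in 7 libraries, at 16.1% in IM 2 and at 0.0291% in IM 3. The Hoxb cluster held between 53.2% and 80.6% of the family's TPM in every library, and Hoxa held between 11.9% and 42.4%. Hoxd held between 2.14% and 16.3%, and Hoxc between 0.0383% and 6.09%, the highest being IM 3.

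The leading gene of each cluster was the same in most libraries. In Hoxa it was Hoxa10 in 8 libraries and Hoxa5 in IM 3. In Hoxb it was Hoxb13 in 8 libraries and Hoxb6 in IM 3. In Hoxd it was Hoxd13 in 6 libraries and Hoxd8 in IM 2, IM 3 and CT 3.

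Weighting each paralogue number by its TPM gives a mean position in the collinear order. It was 12.04, 10.6 and 12.1 in IM-HYA, 11.9, 8.17 and 6.42 in IM, and 11.98, 11.97 and 11.2 in CT. The group means were 11.6 ± 0.888 in IM-HYA, 8.83 ± 2.80 in IM and 11.7 ± 0.462 in CT (SD, n = 3 each). IM 2 and IM 3 were below every other library, and IM 1 lay among the IM-HYA and CT libraries, so the groups overlap. Without Hoxb13 the weighted number was 9.78, 7.76 and 10.04 in IM-HYA, 9.88, 7.24 and 6.42 in IM, and 9.82, 8.64 and 7.998 in CT. IM 3 and IM 2 were again the lowest, and IM-HYA 2 and CT 3 came next.

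Paralogue group 13 made up 79.6, 55.02 and 81.4% in IM-HYA, 77.2, 16.8 and 0.0291% in IM, and 77.2, 80.7 and 64.8% in CT of Hox TPM. Groups 4 to 8 made up 5.699, 16.7 and 4.93% in IM-HYA, 6.37, 44.8 and 81.02% in IM, and 5.98, 6.62 and 12.1% in CT. As group means, group 13 held 72.0% ± 14.7 in IM-HYA, 31.3% ± 40.6 in IM and 74.2% ± 8.36 in CT (SD, n = 3 each). The SD among the IM libraries was larger than their mean, because IM 1 was at 77.2%.

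**Figure D2:**
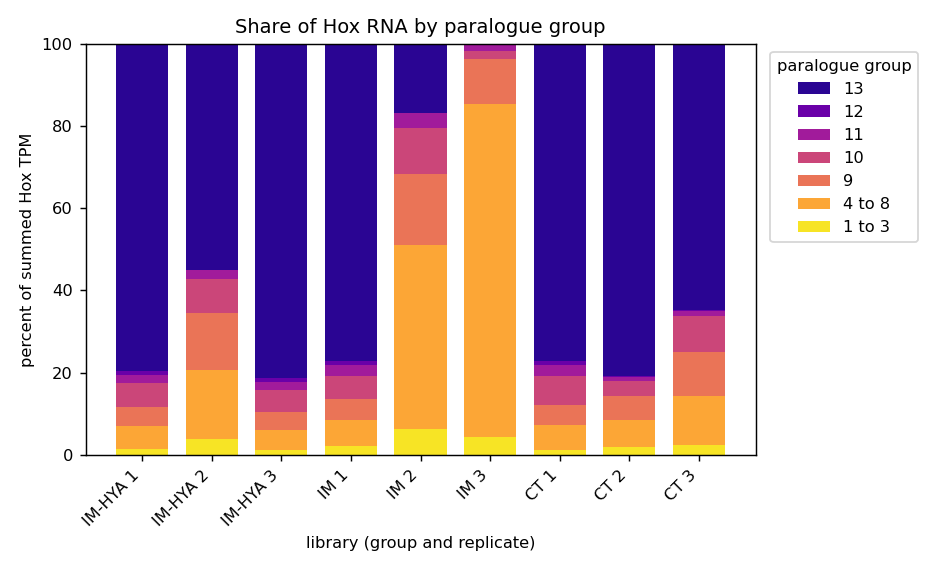
Share of the summed Hox TPM held by each paralogue group (stacked bars, percent) in each library, IM-HYA, IM and CT from left to right. Group 13 holds 55.0% or more in 7 libraries, 16.8% in IM 2 and 0.0291% in IM 3, where groups 4 to 8 hold 44.8% and 81.0%.

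The group 13 genes mark the tail end of the axis. Hoxb13, known from the prostate and from epithelium of the distal gut, measured 415, 163 and 441 CPM in IM-HYA, 324, 39.6 and 0.1395 CPM in IM, and 411, 336 and 210.2 CPM in CT. It was at 3 counts in IM 3 and low in IM 2, while IM 1 lay within the ranges of both other groups. Hoxd13, which patterns digits and, in mice, the anal sphincter, measured 96.04, 3.65 and 105 CPM in IM-HYA, 99.5, 0.591 and 0 CPM in IM, and 105, 33.6 and 4.62 CPM in CT. It was between 96.0 and 105 CPM in IM-HYA 1, IM-HYA 3, IM 1 and CT 1, intermediate in CT 2, and 4.62 CPM or less in IM-HYA 2, IM 2, IM 3 and CT 3. High and low libraries occurred in each of the 3 groups.

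Hoxa13, which acts in the hindgut and the genital tubercle, measured 4.07, 2.93 and 6.53 CPM in IM-HYA, 8.15, 1.27 and 0 CPM in IM, and 0.754, 1.02 and 1.77 CPM in CT. Every IM-HYA library was above every CT library, and the IM libraries spanned the range of both, with 0 counts in IM 3. Hoxc13 had no count anywhere, so the 3 group 13 genes that were measured came from Hoxa, Hoxb and Hoxd.

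Hoxd12, the next gene of the Hoxd cluster, measured 9.68, 0.259 and 11.2 CPM in IM-HYA, 9.41, 0.0933 and 0.326 CPM in IM, and 11.4, 2.53 and 1.08 CPM in CT. Hoxd11, which patterns the forearm together with Hoxa11, measured 23.3, 1.18 and 20.2 CPM in IM-HYA, 19.5, 2.02 and 6.79 CPM in IM, and 29.2, 6.56 and 1.43 CPM in CT. Hoxd10, a gene of hindlimb and lumbosacral patterning, measured 15.8, 0.937 and 13.5 CPM in IM-HYA, 15.6, 0.808 and 4.46 CPM in IM, and 23.9, 5.602 and 0.9698 CPM in CT. These genes and Hoxd13 were high in the same 4 libraries, IM-HYA 1, IM-HYA 3, IM 1 and CT 1. Summed from Hoxd10 to Hoxd13 the level was 145, 6.02 and 150.2 CPM in IM-HYA, 144, 3.51 and 11.6 CPM in IM, and 169, 48.3 and 8.101 CPM in CT. The 4 libraries lay between 144.0 and 169 CPM, CT 2 at 48.3 CPM and the other 4 at 11.6 CPM or less.

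Within the Hoxd cluster the balance between ends also varied. The TPM ratio of Hoxd13 to Hoxd9 was 18.4, 2.15 and 31.2 in IM-HYA, 19.55, 0.1798 and 0 in IM, and 12.9, 10.6 and 5.14 in CT. It was 5.14 or more in IM-HYA 1, IM-HYA 3, IM 1 and all 3 CT libraries. It was 2.15 in IM-HYA 2, 0.180 in IM 2 and 0 in IM 3. Hoxd9, a gene of the middle of the cluster, measured 4.29, 1.396 and 2.78 CPM in IM-HYA, 4.17, 2.61 and 14.1 CPM in IM, and 6.62, 2.596 and 0.742 CPM in CT, with its highest level in IM 3.

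**Figure D3:**
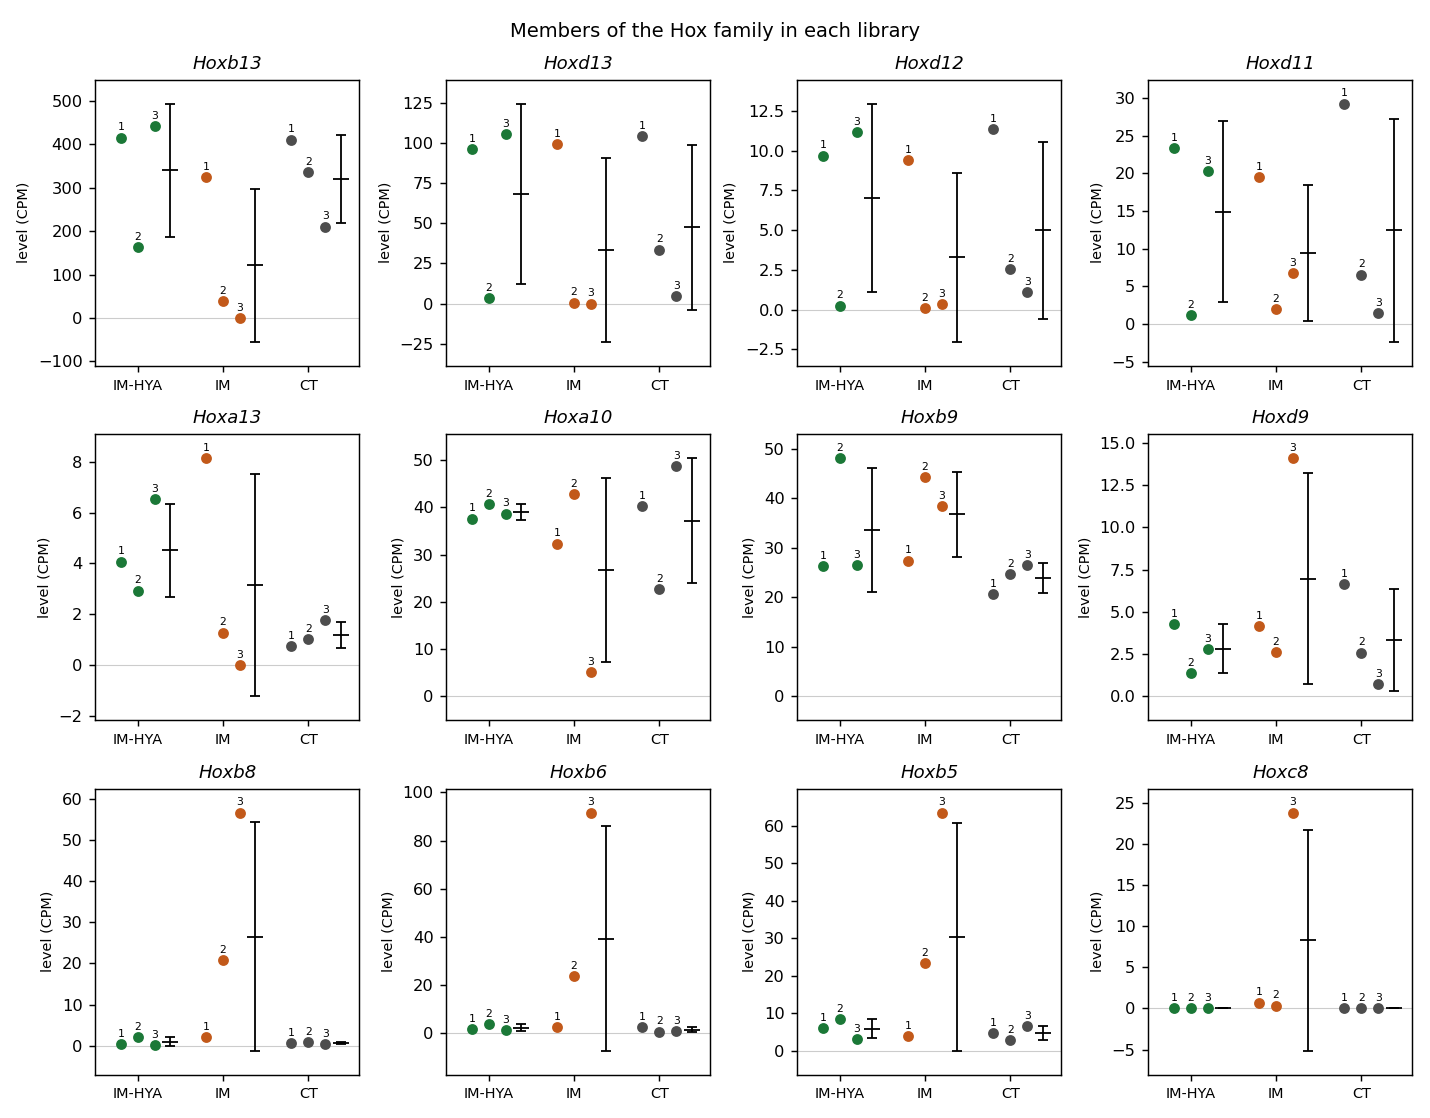
Level in TMM-scaled CPM of 12 Hox genes in each library (numbered points) of IM-HYA, IM and CT, with the group mean and SD (bar) at the right of each group. Hoxd10 to Hoxd13 are represented by Hoxd11, Hoxd12 and Hoxd13, which have high and low libraries in every group, and Hoxb5, Hoxb6, Hoxb8 and Hoxc8 are highest in IM 3.

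The Hoxa genes of groups 9 to 11 varied less. Hoxa10, known for its role in the uterus, measured 37.6, 40.8 and 38.7 CPM in IM-HYA, 32.3, 42.8 and 5.21 CPM in IM, and 40.3, 22.8 and 48.7 CPM in CT. Hoxa9, a gene of blood stem cells and of trunk patterning, measured 26.5, 39.1 and 26.8 CPM in IM-HYA, 20.7, 44.4 and 12.6 CPM in IM, and 35.3, 25.6 and 48.5 CPM in CT. Hoxa11, which acts in forearm and uterus, measured 6.53, 9.55 and 6.58 CPM in IM-HYA, 8.53, 13.7 and 4.79 CPM in IM, and 7.64, 3.28 and 6.16 CPM in CT. IM 3 was the lowest library for Hoxa9 and Hoxa10, CT 2 was the lowest for Hoxa11, and the other libraries overlapped between the groups. Hoxa11 shares exon positions with Hoxa11os on the other strand, which measured 138, 221 and 126 CPM in IM-HYA, 91.9, 204 and 35.1 CPM in IM, and 141, 127 and 184 CPM in CT.

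Hoxb9, a gene of thoracic patterning, had the smallest fitted spread of the 32 members. It measured 26.3, 48.1 and 26.5 CPM in IM-HYA, 27.4, 44.2 and 38.5 CPM in IM, and 20.6, 24.7 and 26.5 CPM in CT. All 3 IM libraries were above all 3 CT libraries, and IM-HYA 2 was the highest of the 9. The highest library was 2.33 times the lowest, against 2.08 times for Hoxa7, 2.22 times for Hoxa3 and 1.91 times for Hoxa4. In group 9 the remaining member, Hoxc9, had 2, 0 and 0 counts in IM-HYA, 6, 0 and 30 counts in IM, and 7, 0 and 0 counts in CT. Hoxc10 had 12, 0 and 0 counts in IM-HYA, 17, 0 and 12 counts in IM, and 0, 0 and 0 counts in CT.

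Members of the middle of the clusters behaved unlike each other in Hoxa and Hoxb. Hoxa5, needed for lung and gut mesenchyme, measured 16.9, 21.99 and 15.9 CPM in IM-HYA, 11.7, 29.9 and 29.4 CPM in IM, and 16.9, 14.7 and 23.9 CPM in CT. Hoxa7, a trunk gene, measured 12.01, 23.4 and 12.99 CPM in IM-HYA, 12.5, 22.1 and 11.3 CPM in IM, and 12.7, 13.5 and 14.3 CPM in CT. Hoxa3, which shapes the pharyngeal arches and thymus, measured 13.1, 20.2 and 12.4 CPM in IM-HYA, 11.6, 17.6 and 9.67 CPM in IM, and 12.3, 9.09 and 19.3 CPM in CT. Of Hoxa3, Hoxa5 and Hoxa7, none varied more than 2.55 times between libraries, and their groups overlapped. Hoxa6, a less abundant gene of the same stretch, varied 11.8 times, with 2.75 CPM in IM-HYA 1 and 0.233 CPM in IM 3, and Hoxa2 varied 3.64 times. The sum from Hoxa2 to Hoxa7 lay between 41.05 and 75.7 CPM in all libraries.

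The Hoxb genes from Hoxb3 to Hoxb8 were instead highest in IM 3 and next highest in IM 2. Hoxb8, a gene of myeloid progenitors and of the trunk, measured 0.439, 2.15 and 0.218 CPM in IM-HYA, 2.03, 20.7 and 56.6 CPM in IM, and 0.707, 0.956 and 0.456 CPM in CT. Hoxb6, a trunk gene of the same stretch, measured 1.497, 3.83 and 1.19 CPM in IM-HYA, 2.36, 23.5 and 91.7 CPM in IM, and 2.52, 0.547 and 0.913 CPM in CT. Hoxb5, a gene of enteric neural crest and lung, measured 6.15, 8.38 and 3.17 CPM in IM-HYA, 4.01, 23.4 and 63.5 CPM in IM, and 4.78, 2.94 and 6.56 CPM in CT. IM 1 lay with the IM-HYA and CT libraries for Hoxb5 and Hoxb6, whereas for Hoxb8 all 3 IM libraries were above all 3 CT libraries. Summed from Hoxb3 to Hoxb8 the level was 12.95, 20.6 and 8.61 CPM in IM-HYA, 12.9, 94.8 and 288 CPM in IM, and 13.95, 7.58 and 12.2 CPM in CT. The highest library exceeded the lowest 260.2 times for Hoxb8, 168 times for Hoxb6, 44.0 times for Hoxb4, 36.1 times for Hoxb7, 21.6 times for Hoxb5 and 16.6 times for Hoxb3. Hoxb2, a hindbrain gene at the next position, varied 2.29 times.

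Hoxb9 and Hoxb8 are neighbours on the chromosome, and their TPM ratio changed across libraries. Hoxb8 per Hoxb9 was 0.0169, 0.04697 and 0.008402 in IM-HYA, 0.07496, 0.499 and 1.58 in IM, and 0.0349, 0.0402 and 0.0165 in CT. It was 0.499 in IM 2 and 1.58 in IM 3, against 0.0750 or less in the other 7 libraries. Hoxb13 per Hoxb9 was 31.1, 6.68 and 32.9 in IM-HYA, 23.3, 1.77 and 0.00478 in IM, and 39.3, 26.9 and 15.7 in CT. IM 2 and IM 3 had the lowest values of that ratio.

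Hoxc genes were close to absent outside IM 3. Hoxc8, a gene of thoracic patterning, had 0, 0 and 0 counts in IM-HYA, 31, 11 and 512 counts in IM, and 0, 0 and 0 counts in CT. The 3 libraries of IM-HYA and the 3 of CT were all at 0, and most of the IM reads were in IM 3. Against the floor of 3 counts per library, the IM mean was at least 55.6-fold higher than CT, and the IM-HYA mean at least 129-fold lower than IM. Hoxc6 and Hoxc4, its neighbours, reached 9.53 and 5.07 CPM in IM 3 and stayed under 1 CPM in the other libraries. Hoxc5 did not exceed 0.605 CPM.

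Among the low-numbered Hoxd genes, Hoxd4 and Hoxd8 were highest in the same libraries as Hoxb3 to Hoxb8. Hoxd4, a gene of cervical vertebrae and hindbrain, measured 0.639, 0.798 and 0.411 CPM in IM-HYA, 0.698, 1.74 and 8.74 CPM in IM, and 0.259, 0.342 and 0.342 CPM in CT. Hoxd8 measured 2.69, 2.63 and 2.78 CPM in IM-HYA, 2.84, 8.58 and 18.8 CPM in IM, and 5.87, 3.48 and 4.51 CPM in CT. IM 3 was highest and IM 2 next for both, and every IM library was above every CT library for Hoxd4. Hoxd3 reached 1.86 CPM in IM 3, and Hoxd1 had 2 counts in IM 2 and none elsewhere. Hoxa2, a gene of the hindbrain and the pharyngeal arches, did not exceed 3.39 CPM. Over all 39 members IM 3 was the highest library for 16 and the lowest for 9.

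Spread between libraries of one group was large for the family. The fitted biological coefficient of variation, the relative spread between replicates beyond counting error, had a median of 0.675 over the 32 members and 0.363 over all 18414 genes tested. It was above the all-gene median for 28 of 32 members. It ran from 0.285 for Hoxb9 and 0.328 for Hoxa7 to 1.54 for Hoxd13 and 1.56 for Hoxc10.

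The first comparison asks what the HYA diet does under the cast. Hoxb3 to Hoxb8, Hoxc4, Hoxc6, Hoxc8, Hoxd4 and Hoxd8 were lower in IM-HYA than in IM at an unadjusted p under 0.05, and no member was higher at that level. None passed edgeR's quasi-likelihood test at a Benjamini-Hochberg adjusted p under 0.05 in either direction. Over all genes 0% passed in each direction, so the test made no call at all here. The 11 lower members are 34.4% of the 32 tested, beside 6.39% of all genes, and the 0 higher ones stand beside 1.27%. Groups did not overlap for 4 members that were lower (Hoxc6, Hoxc8, Hoxd3 and Hoxd8), beside 4.3% of all genes, and for 0 that were higher, beside 5.39%. Hoxc6, Hoxc8 and Hoxd3 passed the filter only with the IM libraries, the group where they are high. Hoxc6 and Hoxc8 thus lend no support to the 11, and neither they nor Hoxd3 to the 4.

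Hoxb8 had a log2 fold change of -4.81 (SE 1.17) and Hoxb7 of -3.08 (SE 0.80) between IM-HYA and IM, with an adjusted p of 0.604 for both in edgeR. In the other direction Hoxa6 had a log2 fold change of 0.78 (SE 0.69, edgeR adjusted p = 0.657), with a level of 2.75 CPM or less in every library. For groups 4 to 8, the fold change was below 0 in 12 of 14 members with a median of -2.47. For groups 10 to 13 it was above 0 in 7 of 9 with a median of 0.54. The median over all 32 members was -0.33, and over all genes -0.01. The members' median was -0.58 without IM-HYA 2 and -0.19 without IM 2. The medians with all libraries do not move when Hoxc8 is put at its bound.

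One library decided the calls of this comparison. Without IM 1, edgeR called 8 members lower in IM-HYA, namely Hoxb3 to Hoxb8, Hoxd4 and Hoxd8, among 871 genes called over the whole table. Hoxb8 then had a log2 fold change of -5.35 (edgeR adjusted p = 0.0436). Without IM 3 it was -3.59 (edgeR adjusted p = 0.9997), and no member was called. DESeq2 called 3 members lower with all libraries, Hoxb6, Hoxb7 and Hoxb8. With these members it called 46 genes in either direction, of the 18414 that passed the filter.

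IM 3, the library that was highest for these genes, also differed in markers of other cells. All 5 T cell markers summed to 5.39 to 7.34 CPM in IM-HYA, 8.55 to 113 CPM in IM, and 5.73 to 7.04 CPM in CT. All 4 B cell markers summed to 9.31 to 21.03 CPM in IM-HYA, 7.56 to 451 CPM in IM, and 31.02 to 41.7 CPM in CT. All 5 adipocyte markers summed to 42.7 to 93.96 CPM in IM-HYA, 93.7 to 1169 CPM in IM, and 52.9 to 122 CPM in CT, with Lep at 0 in IM 3. The upper end of each IM range was IM 3. The pancreatic list, of 11 genes, summed to 4249.6 CPM in IM 3. All 4 mesothelium markers summed to 0.919 to 1.496 CPM in IM-HYA, 2.21 to 14.9 CPM in IM, and 0.478 to 2.805 CPM in CT, and all 4 endothelium markers to 74.4 to 84.5 CPM in IM-HYA, 75.5 to 183 CPM in IM, and 82.4 to 97.7 CPM in CT, again with IM 3 the highest. All 7 fibroblast markers summed to 829 to 1282 CPM in IM-HYA, 391 to 1879.7 CPM in IM, and 777 to 1341 CPM in CT. That level was lowest in IM 3, at 391 CPM, and next lowest in IM 2, at 583 CPM, against 777 CPM or more in the other 7 libraries. All 8 smooth muscle markers summed to 6665 to 7991 CPM in IM-HYA, 4868 to 12408 CPM in IM, and 5056 to 10580.3 CPM in CT, highest in IM 2 and lowest in IM 3. All 8 markers of enteric neurons and glia summed to 43.05 to 80.7 CPM in IM-HYA, 49.6 to 120.3 CPM in IM, and 45.9 to 116 CPM in CT, and all 5 markers of anal skin epithelium to 4.49 to 9.92 CPM in IM-HYA, 1.77 to 5.74 CPM in IM, and 4.51 to 8.68 CPM in CT, with IM 3 the highest for the first list and the lowest for the second. IM 2, second highest for Hoxb3 to Hoxb8, had 8.55 CPM of the T cell list, 7.56 CPM of the B cell list and 93.7 CPM of the adipocyte list, the lowest IM values of each. Rn18s-rs5 also took a larger share in IM 2 and IM 3 than in IM 1, and its share was highest in CT 3, where Hoxb3 to Hoxb8 summed to 12.2 CPM. The part of these cells and of the ribosomal share in the Hox levels was not tested. In bulk tissue fewer cells of a type and less RNA per cell cannot be told apart.

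The second comparison sets cast mice on HYA diet against controls. No member passed edgeR's adjusted test, beside 0% of all genes called higher and 0.00543% called lower, and none had an unadjusted p under 0.05 in either direction, beside 2.31% and 2.89%. DESeq2 called no member either, beside 15 genes of the 18414 that passed the filter. Hoxb9 had a log2 fold change of 0.49 (SE 0.28) and Hoxa13 of 1.94 (SE 1.24), each with an adjusted p of 0.854 in edgeR. Without IM-HYA 2 the value of Hoxb9 was 0.147. Hoxd8, at -0.78 (SE 0.54, edgeR adjusted p = 0.855), and Hoxa4, at -0.26 (SE 0.40, edgeR adjusted p = 0.930), were the first in the other direction. Hoxa4 changed sign, to 0.07, without CT 2.

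Groups did not overlap for Hoxa6, Hoxa13 and Hoxd4, which were higher in IM-HYA. They are 9.38% of the 32 tested, beside 10.8% of all genes. Hoxd8 was lower without overlap, which is 3.12% beside 11.3%. Neither share of the members exceeds that of all genes. Hoxa13 averaged 4.51 ± 1.84 CPM in IM-HYA and 1.18 ± 0.525 CPM in CT (SD, n = 3 each). The median log2 fold change was 0.26 over the members and 0.01 over all genes. The members' median was 0.021 without IM-HYA 2, 0.12 without CT 2 and 0.41 without CT 1.

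The third comparison sets the cast on normal diet against controls. Hoxb3 to Hoxb8, Hoxc4, Hoxc6, Hoxc8, Hoxd3 and Hoxd4 were higher in IM than in CT at an unadjusted p under 0.05. These 11 members are 34.4% of those tested, beside 4.83% of all genes, and 0 were lower, beside 3.11%. None passed edgeR's adjusted test, beside 0% of all genes called higher and 0.00543% called lower. This comparison and the first share the IM libraries, and IM 2 and IM 3 carry the high levels in both.

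Hoxb8 had a log2 fold change of 5.22 (SE 1.20) and Hoxd4 of 3.56 (SE 0.86) between IM and CT, each with an adjusted p of 0.621 in edgeR. Without IM 3 these were 4.01 and 1.96 (edgeR adjusted p = 0.885 each). In the other direction Hoxa9 had a log2 fold change of -0.49 (SE 0.42, edgeR adjusted p = 0.741), which was -1.10 without IM 2 and -0.16 without IM 3. DESeq2 called 5 members higher, Hoxb4, Hoxb6, Hoxb7, Hoxb8 and Hoxd4. With these members it called 63 genes in either direction, of the 18414 that passed the filter. All 14 tested members of groups 4 to 8 had a fold change above 0, with a median of 2.86. Groups 10 to 13 had a median of -0.47, with 6 of 9 below 0. Over all members the median was 0.64, and over all genes 0.04. The members' median was 1.14 without CT 1 and 0.36 without IM 2.

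Groups did not overlap for 6 members that were higher in IM, beside 4.43% of all genes, and for 0 that were lower, beside 4.59%. The 6 were Hoxb8, Hoxb9, Hoxc6, Hoxc8, Hoxd3 and Hoxd4. Of these, Hoxb9 was not among the 11 with a small p-value. It averaged 36.7 ± 8.56 CPM in IM and 23.9 ± 3.03 CPM in CT (SD, n = 3 each). Hoxc6, Hoxc8 and Hoxd3 passed the filter only with the IM libraries, where they are high. They lend no support to the 6 or the 11.

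**Figure D4:**
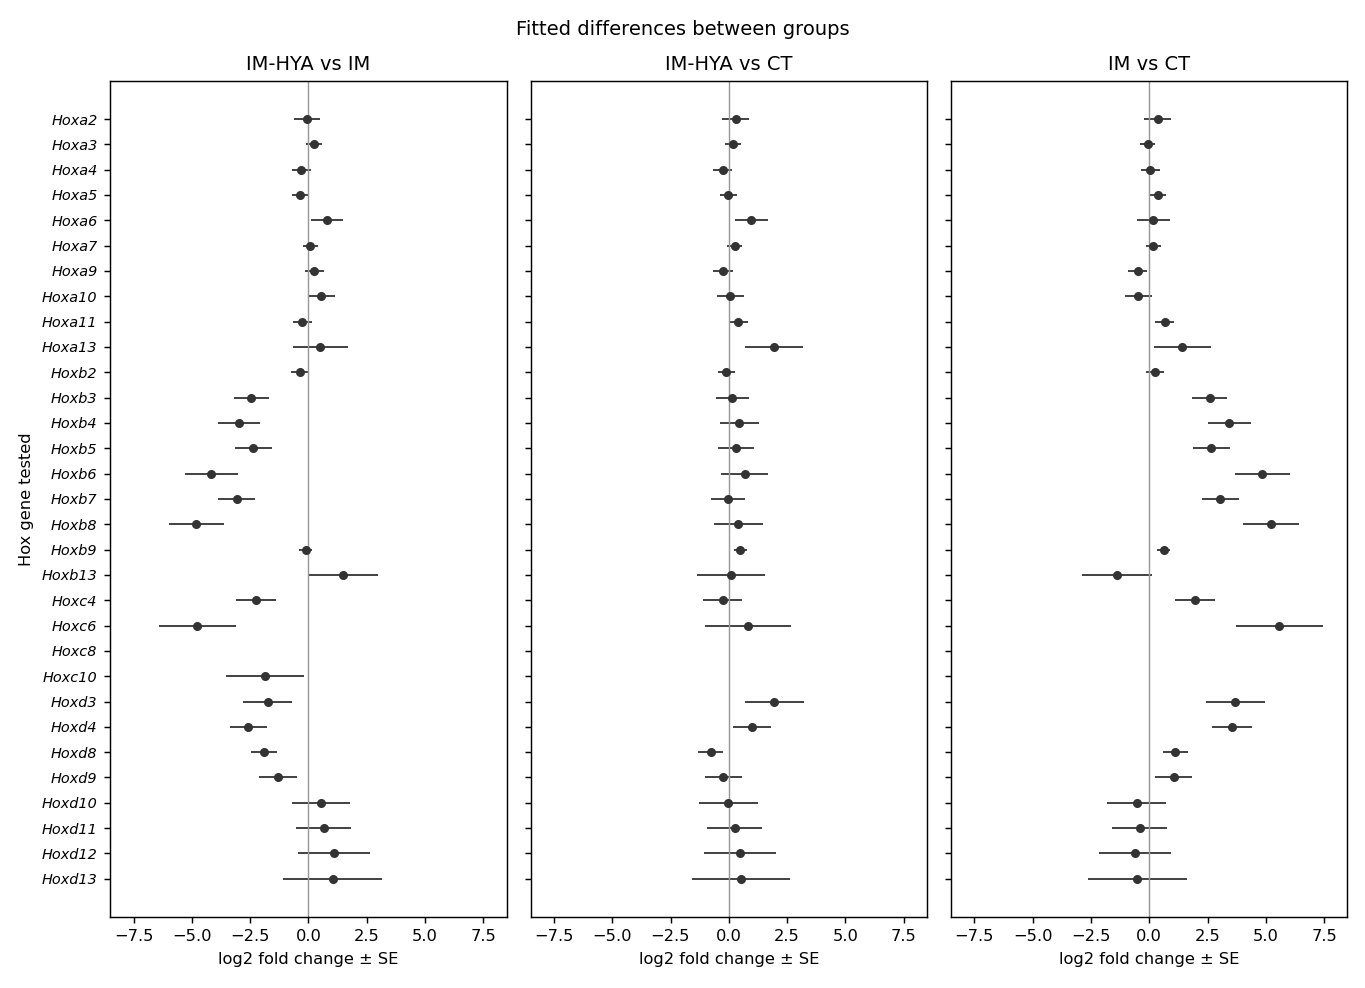
Fitted log2 fold change (points) with its SE (lines) of tested Hox genes, in IM-HYA against IM, IM-HYA against CT and IM against CT. Genes with no count in a whole group (Hoxc8 and, where CT is compared, Hoxc10) have no point. Hoxb3 to Hoxb8 lie left of 0 in IM-HYA against IM and right of 0 in IM against CT, and the Hoxd10 to Hoxd13 lines cross 0 in every panel.

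All cast libraries against controls gave 5 members higher at an unadjusted p under 0.05, which is 15.6% of those tested, beside 2.82% of all genes. They were Hoxb4, Hoxb6, Hoxb8, Hoxd3 and Hoxd4. Hoxd3 passed the filter only with the IM libraries, so it lends no support to the 5. No member was lower, beside 3.39%, and none passed the adjusted test, beside 0% called higher and 0.00543% called lower. Hoxd4 had a log2 fold change of 2.27 (SE 0.77, edgeR adjusted p = 0.781) and Hoxb6 of 2.77 (SE 1.004, edgeR adjusted p = 0.782). Hoxa9 had one of -0.37 (SE 0.36, edgeR adjusted p = 0.876). Hoxd4 alone was higher with no overlap between cast and control libraries, beside 1.88% of all genes, and none was lower without overlap, beside 2.04%. Asked for any difference among the 3 groups, edgeR called 0 members, beside 0.00543% of all genes. At an unadjusted p under 0.05 there were 12, or 37.5%, beside 6.69%. Hoxc6, Hoxc8 and Hoxd3 are among the 12 and passed the filter only with the IM libraries.

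Other genes of the Hox clusters lie next to these members on the chromosome. None of the 14 tested of 26 listed passed the adjusted test in any comparison. Hottip, a long noncoding RNA beside Hoxa13, measured 23.7, 23.2 and 26.6 CPM in IM-HYA, 24.05, 12.2 and 0 CPM in IM, and 18.3, 25.3 and 18.9 CPM in CT. It was at 0 in IM 3, where Hoxa13 was at 0 too, and low in IM 2. Evx2, a homeobox gene beside Hoxd13, measured 3.35, 0.319 and 4.72 CPM in IM-HYA, 3.49, 0 and 0 CPM in IM, and 5.73, 1.16 and 1.08 CPM in CT. It was highest in IM-HYA 1, IM-HYA 3, IM 1 and CT 1, the 4 libraries that were highest for Hoxd13. Haglr, a noncoding RNA at the Hoxd1 end of its cluster, was at 0.249 CPM in IM 2 and 2.23 CPM in IM 3 and at 0 in the other 7 libraries.

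Factors that act upstream of Hox genes in the gut varied by library as well. Of the Cdx and gut patterning factors, 0 of 9 tested passed in any comparison. Cdx2, a caudal-type factor of intestinal identity, measured 36.5, 227 and 44.04 CPM in IM-HYA, 49.4, 318 and 155 CPM in IM, and 53.2, 83.2 and 203 CPM in CT. It was 155 CPM or more in IM-HYA 2, IM 2, IM 3 and CT 3 and 83.2 CPM or less in the others. The high libraries for Cdx2 are those in which Hoxd13 was 4.62 CPM or less. Cdx1, its relative, measured 321, 299.6 and 349 CPM in IM-HYA, 279, 242 and 105 CPM in IM, and 322, 331 and 266 CPM in CT, lowest in IM 3. Goblet cell markers, a list of 5, summed to 8524 to 26511 CPM in IM-HYA, 9528 to 25111 CPM in IM, and 7941 to 33170.1 CPM in CT. That sum was 15776 CPM or more in IM-HYA 2, IM 2, IM 3, CT 2 and CT 3 and 9528 CPM or less in the others. The list did not move as one. Muc2, the main secreted mucin, made up 10701 CPM of the sum in IM 3, where Tff3, Clca1 and Fcgbp were at their lowest of the 9 libraries, at 276, 400.4 and 1468 CPM, and Zg16 was second lowest. The part of goblet cells in the Hoxd levels was not tested.

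Retinoic acid induces Hox genes of the low-numbered end in embryos. Of the genes that make, bind and degrade it, 0 of 10 tested passed. Aldh1a1, a retinaldehyde dehydrogenase, measured 54.4, 135 and 62.9 CPM in IM-HYA, 82.8, 296 and 475 CPM in IM, and 51.03, 55.5 and 75.4 CPM in CT. Its level was highest in IM 3 and next highest in IM 2, the same order as for Hoxb3 to Hoxb8. Its log2 fold change was -1.76 (SE 0.56, edgeR adjusted p = 0.604) in IM-HYA against IM and 2.23 (SE 0.57, edgeR adjusted p = 0.621) in IM against CT. Cyp26b1, which degrades retinoic acid, had the same order, at 5.02 CPM in IM 3 and 3.89 CPM in IM 2. Other genes of the list had another order. Aldh1a2 was highest in IM-HYA 2, at 9.95 CPM, and Aldh1a3 in CT 1, at 11.7 CPM.

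**Figure D5:**
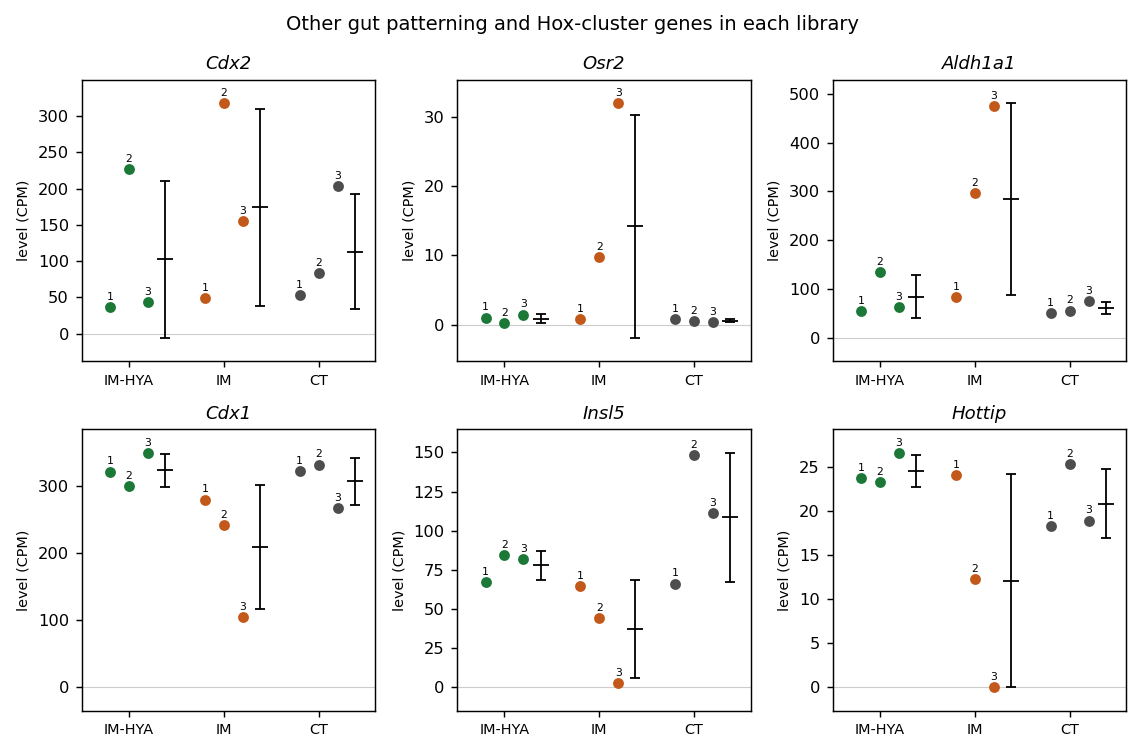
Level in TMM-scaled CPM of Cdx2, Osr2, Aldh1a1, Cdx1, Insl5 and Hottip in each library (numbered points) of IM-HYA, IM and CT, with the group mean and SD (bar). Osr2 and Aldh1a1 are highest in IM 3 and IM 2, Insl5 and Hottip are lowest in IM 3, and Cdx2 has high libraries in each group.

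Hox cofactors and chromatin regulators of the clusters were not called either. All 9 Pbx, Meis and Pknox genes were tested and none passed or had an unadjusted p under 0.05 in any of the 4 comparisons of groups. Their median log2 fold change was -0.19 in IM-HYA against IM, -0.13 in IM-HYA against CT and 0.11 in IM against CT. Of the polycomb genes, which keep Hox genes silent, 0 of 16 passed. The next list holds MLL complex genes and H3K27 demethylases, which oppose them, and also Ctcf, and 0 of its 11 passed. The medians of these lists, in that order, were 0.03 and 0.08 in IM-HYA against IM and -0.03 and 0.15 in IM-HYA against CT. In IM against CT they were 0.09 and 0.35. At an unadjusted p under 0.05, Phf1 and Cbx7 of the polycomb list and Kdm6b, a demethylase, were lower in IM-HYA than in IM. Kmt2b, Rbbp5 and Kdm6b were higher and Mtf2 was lower in IM than in CT at that level. IM 3 stood apart, with a summed level of 578 CPM of the polycomb list and 617 CPM of the MLL and demethylase list, against 337 to 398 CPM and 341 to 430 CPM in the other 8 libraries. Neither list moved as one. Phf1 was at 190 CPM in IM 3, its highest library. Eed, Suz12 and Mtf2 of the polycomb list were at their lowest there, at 22.9, 16.9 and 12.5 CPM. So were Dpy30 and Kdm6a of the other list, at 17.5 and 8.88 CPM.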

How the data were processed

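RNA-seq of mouse colon was deposited as 1 table with read counts and TPM for 45777 genes in 9 libraries. Per the submitters' processing notes, the tools were StringTie 2.1.3b, HISAT2 2.1.0, Trimmomatic and bcl2fastq 2.20.0, on the GRCm38 (mm10) build. Read counts per gene were deposited by the authors without normalization, per the file headers, and the deposited TPM values are theirs. FPKM values deposited by the authors beside them were used only as an alternative to TPM for the Hoxb13 share. The strand setting of the counting is not given in the sources used here.

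Columns were matched to libraries by title. Counts were tested with edgeR 4.0.16 (R 4.3.3) by the quasi-likelihood test, with TMM scaling, filterByExpr by group (at least 10 counts, 15 in total), all 9 libraries in 1 fit with group as the only term, and Benjamini-Hochberg adjustment over 18414 genes at 0.05. DESeq2 1.42.0, limma 3.58.1, other scalings and filters, and leaving out libraries were alternatives. The scripts were tested on simulated counts. Libraries of a group differed by far more than counting error (chi-square of at least 39.8 per gene). A fold against a group at 0 used a floor of 3 counts per library. The floors cover counting error only, while each SE comes from the fit and includes its spread between libraries. No batch is given in the labels.

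The Hox members and the gene lists were chosen with earlier results of these data known. Values in every library are given for paralogue groups 9 to 13 and for members with a mean of at least 5 TPM, with a few others by range or singled out after their values were seen (Hoxb3 to Hoxb8, Hoxc8, Hoxd4 and Hoxd8). Test values are given for the 2 members with the smallest p in each direction of each comparison, apart from 1 member that is not reported here. The other genes named come from the lists of cofactors, gut patterning factors, polycomb and MLL genes, retinoic acid genes, cluster neighbours and cell type markers.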

Additional observations from a re-analysis of the deposited data

How the results depend on the processing

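No Hox member passed the adjusted test of edgeR with all libraries, and TMM, size-factor or upper quartile scaling, the filters, limma-voom, the older form of the edgeR test (chosen after seeing the data) and leaving out CT 2 and IM 3 together did not change that. DESeq2 called 3 members in IM-HYA against IM, 5 in IM against CT and 6 for any difference, and its counts over all genes were 46 in IM-HYA against IM, 15 in IM-HYA against CT, 63 in IM against CT, 23 for cast against CT and 91 for any difference. The cause was not tested. On log2(TPM + 1) limma called 4, 14, 4, 7 and 16 genes in the same order, on log2(TPM + 0.1) 1, 14, 4, 8 and 11, and without a filter 0 in each of the last 4. Leaving out CT 2 and IM 3 together gave 1 gene in IM-HYA against IM, 0 in IM against CT and 2 for any difference.

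Leaving out 1 library at a time gave 0 to 8 members in IM-HYA against IM, with 0 to 871 genes, and 0 members in every other comparison, with 1 to 2 genes in each. The median of the members ranged from -0.58 to -0.19 in IM-HYA against IM, from 0.021 to 0.41 in IM-HYA against CT, from 0.36 to 1.14 in IM against CT and from 0.36 to 1.34 for cast against CT, the highest of the last 3 without CT 1. The fold change of Hoxa4 in IM-HYA against CT ranged from -0.45 to 0.071. Signs also reversed for Hoxa4 in IM-HYA against CT, to 0.27 on log2(TPM + 1) with and without the filter, to 0.49 on log2(TPM + 0.1) and to 0.071 without CT 2 and IM 3, the same as without CT 2 alone. They reversed for Hoxa9 for cast against CT, to 0.19 on log2(TPM + 1) with and without the filter and to 0.22 on log2(TPM + 0.1).

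The weighted mean paralogue number of CT was 11.2 with CPM weights. With log2(TPM + 1) weights it was 8.605 in IM-HYA and 8.77 in CT. Fits of only the groups compared gave no value for cast against CT or for any difference.

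Groups share replicate numbers, which the main fit did not treat as pairs. Correlations of deviations within a number ran from -0.273 to 0.364, and 4 of 9 libraries correlated best with their own number. So few libraries cannot settle whether the numbers pair them. With the replicate block 0 members were called in each comparison, and over all genes 0 in IM-HYA against IM and 1 in each other comparison. Depth limits low genes, since 3 counts correspond to 0.0598 CPM in the deepest library and 0.205 CPM in CT 2.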
